A study of Mus musculus with 6 samples.

Results

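Mitf, Tfe3, Tfeb and Tfec are the 4 genes of the microphthalmia family of transcription factors. They were found in the deposited read counts by the Ensembl identifiers of these symbols, and all 4 were present among 22271 genes. Every library was made from total RNA of bone marrow progenitors that had been isolated by flow sorting from mice of the strain C57BL/6JRj. The first group, MOP, was labelled CD27 low, and the second, MODP, was labelled CD27 high, with 3 libraries each. No treatment, age or genotype is given in the labels, and the titles call all libraries WT. The series' title describes a progenitor of macrophages and osteoclasts that lies downstream of one shared with dendritic cells, and the comparison asks how the CD27 low MOP differ from the CD27 high MODP.

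Proteins of this family carry a basic region, a helix-loop-helix and a leucine zipper, and bind DNA as homodimers or as heterodimers with each other, at the E-box CACGTG and the related M-box TCATGTG. Mice with certain Mitf mutations have osteopetrosis, because osteoclasts need this family to mature, and Mitf and Tfe3 can stand in for each other there. Tfeb and Tfe3 are known as activators of lysosome and autophagy genes. In fed cells the kinase complex mTORC1, recruited with them to the lysosome by Rag GTPases, phosphorylates them and keeps them in the cytoplasm. Tfec is expressed mainly in cells of the macrophage line. Transcript counts measure none of this phosphorylation or localisation.

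The libraries held 13338577 to 15892640 counts in MOP and 10701425 to 13846749 in MODP. Levels are given as CPM, counts per 1000000 after TMM scaling of library sizes. Cd27, the sort marker, stood at 4.57, 3.52 and 3.64 CPM in MOP replicates 1 to 3, against 35.4, 38.9 and 38.7 CPM in MODP (log2 fold change -3.27 ± 0.12, SE; edgeR adjusted p = 2.5e-05). Flt3, a receptor of early and dendritic progenitors, was lower too, at 30.5 CPM on average in MOP and 111 CPM in MODP. Csf1r, the M-CSF receptor, was well expressed in both, at 472 to 564 CPM in MOP and 263 to 346 CPM in MODP. Tnfrsf11a, the receptor RANK that osteoclast precursors need, was low, at 2.96 to 3.68 CPM in MOP and 1.12 to 2.07 CPM in MODP. Neutrophil markers were highest in replicate 2 of each group: the 9 genes summed to 2633 to 11039 CPM in MOP and 2047 to 15797 CPM in MODP. Of the 9, 0 passed the test between the groups, while 31.2% of all 12850 tested genes did. Their log2 fold changes ran from -0.54 for Camp to 0.94 for Mmp8, with SE of 0.63 to 1.09. With so wide a spread the test could hardly call any of them, and it does not show equal levels.

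RefSeq lists several transcription starts for most of the members. Its promoter table, built on GRCm38.p6, had 9 windows for the 4 genes. The 160 bases before 1 start of each gene are shown, 5′ to 3′, with a second start for Mitf, so that the members that moved can be set beside those that did not. Capitals mark the GC box GGGCGG, a motif bound by Sp factors, and in the second Mitf sequence TGACGTCA, the cAMP response element.
Tfe3, chrX:7762501-7762660, plus strand: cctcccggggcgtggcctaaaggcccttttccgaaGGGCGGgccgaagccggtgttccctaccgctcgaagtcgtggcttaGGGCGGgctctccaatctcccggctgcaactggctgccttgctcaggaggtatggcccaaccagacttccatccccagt
Tfeb, chr17:47736877-47737036, plus strand: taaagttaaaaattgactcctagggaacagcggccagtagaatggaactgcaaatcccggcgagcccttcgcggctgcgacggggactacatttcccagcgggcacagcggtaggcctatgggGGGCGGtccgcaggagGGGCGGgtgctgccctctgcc
Mitf, first start, chr6:97806898-97807057, plus strand: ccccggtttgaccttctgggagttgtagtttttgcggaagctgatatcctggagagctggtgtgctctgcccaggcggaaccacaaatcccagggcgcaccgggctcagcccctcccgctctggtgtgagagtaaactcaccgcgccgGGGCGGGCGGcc
Mitf, last listed start, chr6:97991623-97991782, plus strand: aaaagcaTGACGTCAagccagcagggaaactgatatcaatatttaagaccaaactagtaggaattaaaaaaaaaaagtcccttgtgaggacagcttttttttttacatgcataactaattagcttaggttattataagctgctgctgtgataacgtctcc
Tfec, chr6:16898442-16898601, minus strand: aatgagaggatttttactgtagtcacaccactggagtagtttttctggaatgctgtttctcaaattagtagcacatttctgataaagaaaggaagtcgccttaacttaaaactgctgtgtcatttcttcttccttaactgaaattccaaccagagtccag

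On either strand of the 250 bases before a start, GGGCGG was found in 5 of the 9 windows, from Tfe3, Tfeb and Mitf, and in none of Tfec. Of all 32851 windows of that length, 32.7% held it, beside 55.6% of the members' windows. In the 6 gene lists described below, 51.7% to 83.3% of windows held it, so it does not set the members apart from them. TGACGTCA was found in 1 of the 9 windows and in 1.55% of all windows. None of the 9 windows held CACGTG or TCATGTG, the motifs of the family itself. GGGCGG and TGACGTCA were picked after the sequences had been read. The last Mitf start is known as that of the form made by melanocytes, and the counts are summed over all starts of a gene, so forms cannot be told apart here.

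Tfe3 and Tfeb rose in MOP, and Tfec, the most abundant member, had nearly the same level in both populations. Mitf was slightly higher, and passed the test only with replicate number added as a block. All 4 members passed the count filter. In edgeR's quasi-likelihood test, with p adjusted over all tested genes, 2 of them came out higher in MOP and 0 lower. Of all 12850 tested genes, 16.3% were higher and 14.9% lower, that is 2095 and 1913 genes, and under upper-quartile scaling 1692 and 2452. With the replicate number as a block they were 2724 and 2544. Without MOP replicate 1 these counts were 1281 and 1036, and without MODP replicate 1 they were 1465 and 1264. In 3 of the 4 members every MOP library lay above every MODP library, which held for 23.8% of all tested genes. The median log2 fold change of the members was 0.54, beside -0.01 over all tested genes.

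Tfe3 (ENSMUSG00000000134, chromosome X), an activator of lysosome genes that also acts in osteoclasts, stood at 73.3, 69.9 and 68.5 CPM in MOP replicates 1 to 3, against 37.6, 43.5 and 33.5 CPM in MODP. The lowest MOP library was well above the highest MODP library. The log2 fold change was 0.89 ± 0.10 (SE), a 1.85-fold difference, with an edgeR adjusted p of 0.00056. Tfeb (ENSMUSG00000023990, chromosome 17), the main activator of lysosome and autophagy genes, stood at 49.5, 46.7 and 46.0 CPM in MOP, against 28.0, 32.0 and 23.0 CPM in MODP. Its groups did not overlap either, and the MODP libraries spread more than the MOP libraries. The log2 fold change was 0.78 ± 0.12 (SE), or 1.72-fold, with an edgeR adjusted p of 0.002.

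Mitf (ENSMUSG00000035158, chromosome 6), the founding member, stood at 19.4, 17.2 and 16.9 CPM in MOP, against 15.4, 14.3 and 13.8 CPM in MODP. Every MOP library lay above every MODP library, but the gap was small. It rests on 223 to 269 reads in a MOP library and 152 to 197 in a MODP library. The log2 fold change was 0.30 ± 0.10 (SE) with an unadjusted 95% interval of 0.06 to 0.54, and the edgeR adjusted p of 0.057 missed the threshold of 0.05. Mitf was called once replicate number was added as a block, with an edgeR adjusted p of 0.031, and over all alternatives the adjusted p ran from 0.031 to 0.21. Tfec (ENSMUSG00000029553, chromosome 6), the macrophage member, stood at 102, 93.4 and 101 CPM in MOP and at 94.9, 85.5 and 99.9 CPM in MODP. These ranges overlapped. The log2 fold change was 0.08 ± 0.07 (SE) with a 95% interval of -0.08 to 0.25 (edgeR adjusted p = 0.43). That interval leaves out differences as large as those of Tfe3 and Tfeb.

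**Figure D1:**
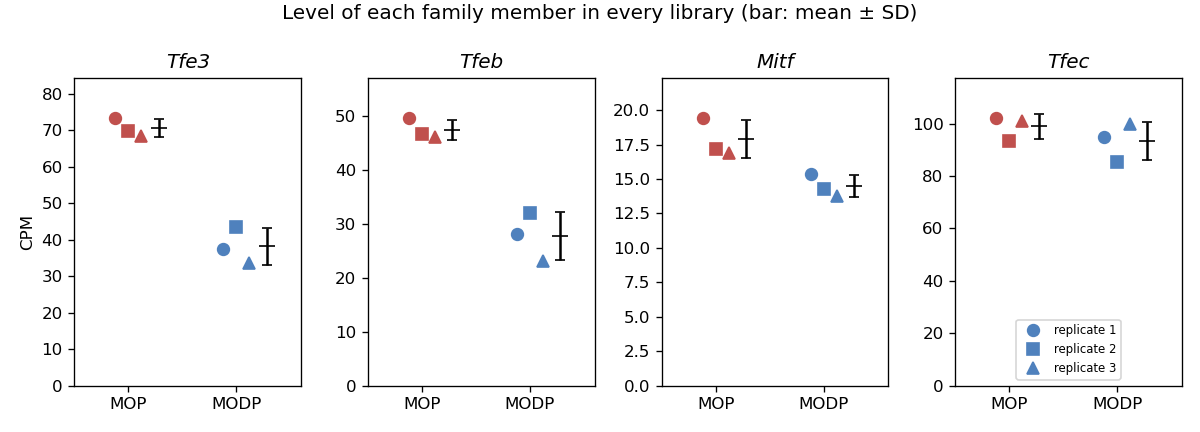
CPM of each gene (vertical axes from 0) in the 3 MOP libraries (red) and the 3 MODP libraries (blue), with symbols for replicate numbers and bars for the mean ± SD. Tfe3 and Tfeb stand at 68.5 to 73.3 and 46.0 to 49.5 CPM in MOP, above all MODP libraries, and the Tfec ranges overlap.

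Within pairs of libraries with the same number in the table's columns, the log2 difference of MOP over MODP was 0.96, 0.69 and 1.03 for Tfe3 and 0.82, 0.55 and 1.00 for Tfeb. It was smallest in pair 2 for both genes, where the MODP library had the highest Tfe3 and Tfeb of its group and the highest neutrophil marker sum of all. Without replicate 2 of both groups the log2 fold change was 1.00 for Tfe3 and 0.91 for Tfeb. The pair differences were 0.34, 0.27 and 0.29 for Mitf and 0.11, 0.13 and 0.02 for Tfec, positive in all pairs.

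Levels of different genes can be compared only per length. Per kb of annotated exon, Tfec averaged 17.7 ± 0.869 CPM in MOP and 16.7 ± 1.31 CPM in MODP (SD, n = 3 each). Next came Tfeb at 8.36 ± 0.326 CPM per kb in MOP and 4.88 ± 0.796 in MODP, and Tfe3 at 7.62 ± 0.265 in MOP and 4.12 ± 0.539 in MODP. Mitf was lowest, at 2.88 ± 0.222 in MOP and 2.34 ± 0.127 in MODP. Tfec and Mitf stood apart from their neighbours in this order by more than the spread of the libraries in each group. Tfeb and Tfe3 did not do so in MODP. Their order also depends on the length used: with the longest coding transcript in place of all exons, Tfe3 averaged 20.8 and Tfeb 20.2 CPM per kb in MOP, against 11.3 and 11.8 CPM per kb in MODP.

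Tfe3 and Tfeb made up more of the family in MOP. Tfec made up 48.4% ± 1.29 of the summed CPM per kb in MOP and 59.6% ± 4.80 in MODP (SD, n = 3 each). Tfe3 made up 20.8% ± 0.531 in MOP and 14.7% ± 1.92 in MODP, and Tfeb 22.9% ± 0.536 in MOP and 17.4% ± 2.80 in MODP. Mitf had the smallest share, at 7.88% ± 0.366 in MOP and 8.34% ± 0.346 in MODP. The sum over the family was 38.1, 35.3 and 36.3 CPM per kb in MOP, against 28.4, 27.9 and 27.8 CPM per kb in MODP. With the longest coding transcript as the length, the share of Tfec was 55.3% in MOP and 66.7% in MODP.

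**Figure D2:**
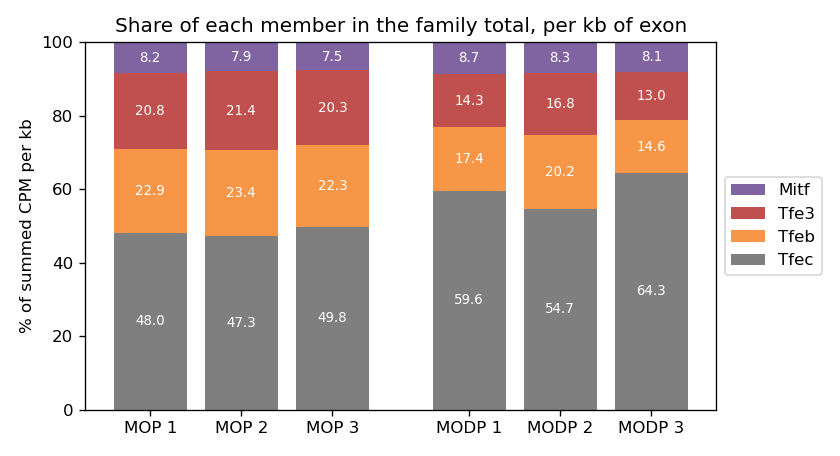
Share of each member in the family's summed CPM per kb of exon, in percent, for each library, with MOP on the left and MODP on the right. Tfec takes 47.3% to 49.8% in MOP and 54.7% to 64.3% in MODP.

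Whether the members differed from each other in their change was tested on the log2 ratio of counts per kb of one member to another within a library, with 0.5 added to each count, which no scaling of library sizes affects. The ratio of Tfe3 to Tfec averaged -1.22 ± 0.07 in MOP and -2.02 ± 0.30 in MODP (SD, n = 3 each), a difference of 0.81. For Tfeb to Tfec the difference was 0.70, for Mitf to Tfe3 -0.60 and for Mitf to Tfeb -0.49. In these 4 pairs of genes no MOP library overlapped a MODP library. The smallest difference was that of the Tfe3 to Tfeb ratio, at 0.10, also without overlap. The Mitf to Tfec ratio differed by 0.21 with overlap. By the two-sided exact permutation test, p was 0.10 for the 5 pairs without overlap, the smallest that 3 against 3 libraries allow, and 0.20 for Mitf to Tfec. Adjusted over the 6 pairs, these became 0.12 and 0.20, so this test cannot place any of these differences past 0.05. Within same-numbered pairs of libraries, each of the 6 ratios differed in 1 direction in all 3 pairs, by 0.23, 0.14 and 0.27 for Mitf to Tfec and by 0.85, 0.56 and 1.01 for Tfe3 to Tfec. An exact two-sided sign-flip test over the 3 pairs gave p = 0.25 for every ratio, the smallest it allows.

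**Figure D3:**
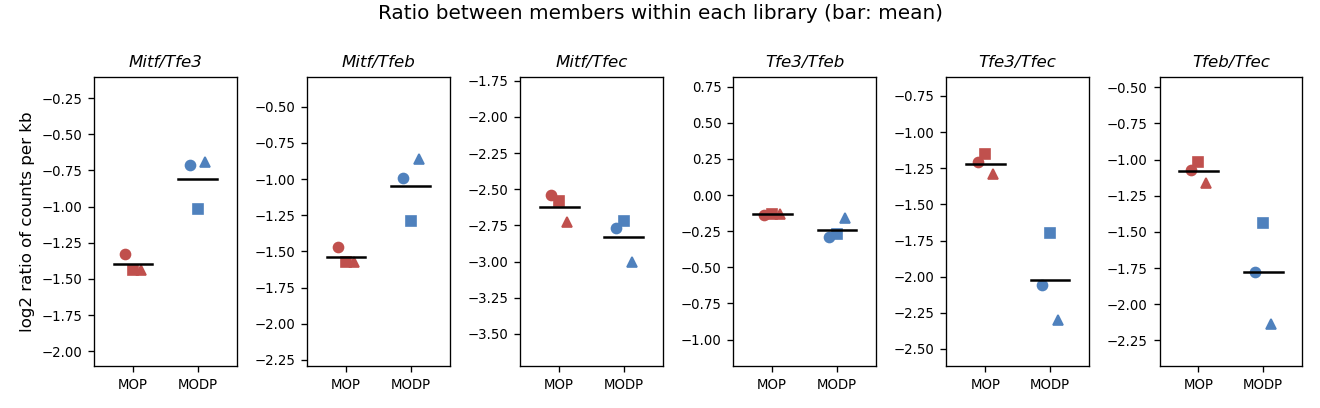
log2 ratio of counts per kb between each pair of members within each library (vertical axes span the same range in every panel), MOP in red and MODP in blue, bars for means. The Tfe3/Tfec ratio is -1.29 to -1.15 in MOP and -2.30 to -1.70 in MODP.

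Markers of some other cells moved with the groups. Over all tested genes, 16.3% were higher in MOP and 14.9% lower. Of 13 basophil and mast cell markers, 12 were in the table, 9 were tested and 8 (88.9%) were higher in MOP. The list summed to 3438 to 5418 CPM in MOP and 567 to 1174 CPM in MODP. Mast cells are known to express Mitf. The defining mast cell protease genes Cma1, Mcpt4 and Tpsb2 stood at or near 0 in every library, with at most 0.282 CPM. Other genes that mast cells share with basophils or their progenitors were higher in MOP: Cpa3, a protease gene of mast cells, stood at 246, 218 and 330 CPM in MOP, against 59.9, 93.3 and 64.3 CPM in MODP, and the IgE receptor genes Ms4a2 and Fcer1a averaged 145 and 87.6 CPM in MOP, against 27.8 and 8.56 CPM in MODP. The basophil protease gene Mcpt8 stood at 903, 724 and 1143 CPM in MOP, against 102, 229 and 83.3 CPM in MODP. The erythroid and megakaryocyte list, 8 genes, summed to 283 to 322 CPM in MOP and 89.0 to 153 CPM in MODP, with 5 of 7 tested members higher, among them the erythroid genes Klf1, Epor and Hemgn, and Itga2b, the integrin CD41, which averaged 172 CPM in MOP and 51.9 CPM in MODP. The megakaryocyte genes Pf4, Gp9 and Gp1bb were low and did not follow them, with averages of 2.34, 1.35 and 0.643 CPM in MOP and 8.22, 1.81 and 1.19 CPM in MODP. T and NK cell markers summed to 66.5 to 106 CPM in MOP and 220.4 to 283 CPM in MODP, with 5 of 8 (62.5%) lower. Most of that sum was Nkg7, which averaged 85.5 CPM in MOP and 227 CPM in MODP. Each of the other T and NK cell markers averaged at most 0.75 CPM in MOP and 5.24 CPM in MODP. B cell markers, 6 genes of which 0 passed, summed to 38.1 to 73.8 CPM in MOP and 42.4 to 118 CPM in MODP. The part of these cells in the higher Tfe3 and Tfeb was not tested, and in such bulk samples fewer cells of a type and less RNA per cell cannot be told apart.

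Markers of mature macrophages, which express Tfec, stayed low: the 11 genes summed to 115 to 231 CPM in MOP and 87.1 to 158 CPM in MODP. Of 8 tested, 1 (12.5%, beside 16.3% of all tested genes), Adgre1, was higher. The other 7 missed the threshold, but the median log2 fold change of the 8 was 0.90. Values ran from 0.04 ± 0.46 for Vcam1 to 1.12 ± 0.43 for Cd5l (SE). The part of such cells in the higher Tfe3 and Tfeb was not tested. Melanocytes, whose pigment genes are classical Mitf targets, left almost no trace. Of 8 melanocyte markers 2 were in the table, and they summed to 0.986 to 1.84 CPM in MOP and 1.4 to 2.16 CPM in MODP. The other gene of the pair, Tyr, the enzyme of pigment synthesis, had 1 read in all 6 libraries together, and the rest was Pmel.

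Lysosome genes of the CLEAR network, the set whose promoters Tfeb and Tfe3 bind, were higher in MOP. Of 34 such genes 33 were tested, 22 (66.7%) rose, 2 fell and 9 missed the threshold, beside 16.3% higher and 14.9% lower over all genes. Their median log2 fold change was 0.40. Lamp1, a main membrane protein of lysosomes, stood at 908, 783 and 814 CPM in MOP, against 519.5, 451 and 455 CPM in MODP (log2 fold change 0.81 ± 0.08, SE; edgeR adjusted p = 0.00039). The proton pump subunit genes Atp6v1b2 and Atp6v1a rose by log2 0.54 ± 0.06 and 0.48 ± 0.05 (SE), the protease gene Ctsb by 0.57 ± 0.06 and Asah1, the acid ceramidase, by 0.61 ± 0.07. The largest fold on the list, picked after its values were seen, was that of Psap, which encodes the saposins that help degrade sphingolipids. It averaged 3290 ± 381 CPM in MOP and 1263 ± 199 CPM in MODP (SD, n = 3 each), with a log2 fold change of 1.38 ± 0.13 (SE, edgeR adjusted p = 0.00088).

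The lower lysosome genes were Gaa, the acid glucosidase, and Ctsf, a cathepsin, at log2 -0.33 ± 0.08 and -0.87 ± 0.23 (SE). Their calls rest on single libraries: without MOP replicate 1, MODP replicate 1 or MODP replicate 3 neither was called, without MOP replicate 2 only Ctsf was, and without MOP replicate 3 only Gaa was. The higher members numbered 17 to 24 in the 6 fits without a library. The sums of basophil markers and of erythroid and megakaryocyte markers were higher in every MOP library as well, and their part in the lysosome genes was not tested.

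The E-box can be read directly in the promoters of these genes. RefSeq windows were found for 24 of the 34 lysosome genes, and 13 of these (54.2%) held CACGTG within 250 bases before a start, against 6.86% of all 27025 genes with a window. The CLEAR network was itself defined by a longer motif with CACGTG at its core, so the share is not independent of the list. An exact match to that longer motif was found in 0 of the 29 windows of these genes and in 0.24% of all windows. Stretches that hold an E-box are shown for lysosome genes that rose and for Gaa, which was lower, with CACGTG, its neighbouring T or A where present and TCATGTG in capitals (CACGTG reads the same on both strands).
Lamp1, chr8:13159109-13159160, plus strand: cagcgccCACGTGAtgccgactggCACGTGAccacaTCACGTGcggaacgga
Atp6v1a, chr16:44139348-44139427, minus strand: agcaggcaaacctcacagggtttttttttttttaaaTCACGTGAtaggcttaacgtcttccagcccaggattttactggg
Clcn7, chr17:25133339-25133390, plus strand: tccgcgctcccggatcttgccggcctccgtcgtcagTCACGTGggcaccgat
Sgsh, chr11:119355511-119355576, minus strand: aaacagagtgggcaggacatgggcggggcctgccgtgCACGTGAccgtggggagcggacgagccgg
Mcoln1, chr8:3500437-3500516, plus strand: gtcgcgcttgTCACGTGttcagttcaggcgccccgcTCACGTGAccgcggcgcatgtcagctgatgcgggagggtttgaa
Gaa, chr11:119267786-119267865, plus strand: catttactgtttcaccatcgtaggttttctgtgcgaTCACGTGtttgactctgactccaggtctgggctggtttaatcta

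Of the 13 lysosome genes with an E-box, 9 were higher in MOP and 2 were lower, with a median log2 fold change of 0.47. Of the 11 tested genes with a window but no E-box, 7 were higher and 0 were lower, with a median of 0.23. Psap and Scpep1, the genes with the highest fold changes of the list, were among those with no E-box in the window. So both kinds of promoter were found among the higher genes, and the lower genes Gaa and Ctsf each held the motif.

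Autophagy genes linked to Tfeb moved little by their median, and the number called depended on the fit. In the fit without a block, of 14 that could be tested, 2 (14.3%) rose, 1 (7.14%) fell and 11 did not pass. These shares were no higher than the 16.3% and 14.9% of all tested genes, and the median log2 fold change was 0.13. The higher genes were Atg9a, which encodes a membrane protein of early autophagosomes, at 98.1, 99.7 and 102 CPM in MOP against 62.7, 69.7 and 58.5 CPM in MODP, and Rab7, the GTPase of late endosomes, at 286, 291 and 297 CPM in MOP against 217, 239.8 and 231 CPM in MODP. Their log2 fold changes were 0.65 ± 0.07 and 0.34 ± 0.05 (SE; edgeR adjusted p = 0.00062 and 0.0027). For Atg9a, 43.9% of its 31-mers also occur in other genes. Gabarapl1, an Atg8 protein, was lower by log2 -0.33 ± 0.07 (SE, edgeR adjusted p = 0.01). The higher genes were 5 with the replicate number as a block, where 2724 of all 12850 tested genes were higher. They were 4 without MODP replicate 2 or without replicate 2 of both groups, where 2524 of 13077 and 2361 of 12855 tested genes were higher. In each of these fits the share of higher genes was larger in this list than over all tested genes.

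**Figure D4:**
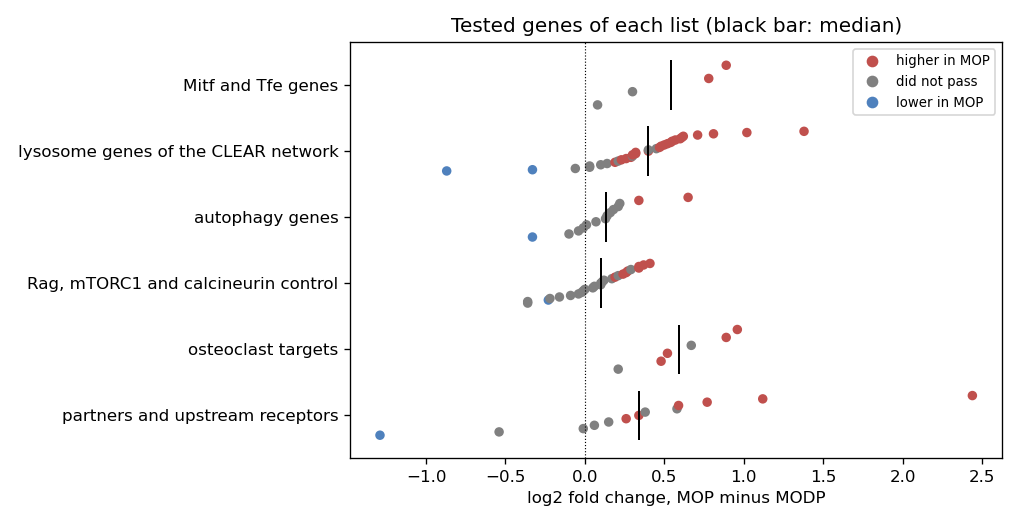
log2 fold change of MOP over MODP for every tested gene of 6 lists, coloured by the edgeR call, with black bars for medians. The lysosome genes lie mostly to the right of 0, with a median of 0.40, and the autophagy and control genes lie close to 0, with medians of 0.13 and 0.10.

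Genes that control where the family's proteins reside changed by small amounts. This list held the Rag GTPases, their Ragulator anchor, the folliculin complex, mTORC1 and its regulators, calcineurin and kinases. Of 27 tested, 8 (29.6%, beside 16.3% of all tested genes) rose, 1 (3.7%, beside 14.9%) fell and 18 missed the threshold, with a median log2 fold change of 0.10. Lamtor1, the Ragulator subunit that anchors the complex to the lysosome, stood at 88.1, 80.7 and 83.1 CPM in MOP, against 65.3, 67.1 and 67.3 CPM in MODP, though 34.2% of its 31-mers occur in other genes. Fnip2, a folliculin partner that is also a target of the family, stood at 34.8, 37.1 and 35.1 CPM in MOP, against 26.7, 28.3 and 25.7 CPM in MODP. Rragc, the Rag GTPase on which folliculin acts, stood at 94.0, 89.8 and 90.7 CPM in MOP, against 76.0, 78.5 and 77.0 CPM in MODP. The groups of these genes did not overlap. Their log2 fold changes were 0.34 ± 0.06, 0.41 ± 0.08 and 0.24 ± 0.05 (SE; edgeR adjusted p = 0.004, 0.0051 and 0.0099).

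Mapk3, the kinase ERK1 that phosphorylates Mitf and Tfeb, and Lamtor3 rose by log2 0.37 ± 0.08 and 0.34 ± 0.08 (SE). The lower gene was Rptor, the mTORC1 subunit that binds substrates, at log2 -0.23 ± 0.07 (SE, edgeR adjusted p = 0.045). Its call was lost with DESeq2, without replicate 2 of both groups and in all fits without a library except that without MODP replicate 2 (adjusted p 0.008 to 0.16 over the alternatives). Flcn, which encodes folliculin, did not pass, at 54.2 to 58.7 CPM in MOP and 54.5 to 64.4 CPM in MODP. The higher genes of the list numbered 3 without MOP replicate 1 and 4 without MODP replicate 1. Rragc lost its call without MOP replicate 1, and Lamtor3 without replicate 1 of either group. Of the 23 list genes with a RefSeq window, 7 (30.4%) held CACGTG, against 6.86% of all genes with a window. Among these 7, 3 rose and 4 missed the threshold. The 3 were Rragc, Lamtor1 and Mcoln1, of which Mcoln1 is counted among the lysosome genes as well. Of the 16 without the motif, 3 rose, 1 fell and 12 missed the threshold. The promoters of Rragc and Lamtor1 were picked for display because both genes rose and carry the motif, so they do not stand for the whole list.
Rragc, chr4:123917284-123917363, plus strand: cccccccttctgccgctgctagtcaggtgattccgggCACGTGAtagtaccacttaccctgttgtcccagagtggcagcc
Lamtor1, chr7:101905732-101905811, plus strand: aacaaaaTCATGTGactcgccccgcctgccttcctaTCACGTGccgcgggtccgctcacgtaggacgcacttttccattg

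Osteoclast genes that the family is known to activate were split between those already expressed and those near 0. Of 13 such genes 12 were in the table and 6 passed the count filter, of which 4 (66.7%) were higher in MOP and 0 were lower, beside 16.3% and 14.9% of all tested genes. Itgb3, the integrin subunit of the vitronectin receptor, stood at 61.9, 58.8 and 59.9 CPM in MOP, against 31.7, 37.7 and 28.4 CPM in MODP. Clcn7, the chloride transporter of the resorbing membrane, is counted among the lysosome genes as well. It stood at 81.1, 76.0 and 71.0 CPM in MOP, against 57.8, 49.3 and 52.0 CPM in MODP. Ostm1, its partner subunit, stood at 87.6, 82.7 and 86.5 CPM in MOP, against 56.8, 67.2 and 60.7 CPM in MODP. None of these groups overlapped. The log2 fold changes were 0.89 ± 0.10, 0.52 ± 0.08 and 0.48 ± 0.07 (SE; edgeR adjusted p = 0.00069, 0.0025 and 0.0023). Itga2b, an integrin gene of the erythroid and megakaryocyte list, was also higher in MOP. The part of such cells in the higher Itgb3 was not tested.

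Acp5, the tartrate-resistant acid phosphatase and a classical Mitf target, stood at 21.8, 33.2 and 16.1 CPM in MOP, against 13.8, 12.6 and 10.3 CPM in MODP, with a log2 fold change of 0.96 ± 0.28 (SE, edgeR adjusted p = 0.042). That call was lost without a count filter and without MOP replicate 1 or any 1 of the MODP libraries. The protease gene Ctsk, the hallmark Mitf target of osteoclasts, was not tested: it had 7, 129 and 3 reads in MOP and 1, 28 and 1 reads in MODP, with replicate 2 highest in each group. The receptor gene Oscar had at most 2 reads in any library, as had the fusion genes Dcstamp and Ocstamp. Mmp9 was also highest in replicate 2 of each group, at 116, 373 and 170.5 CPM in MOP and 69.8, 309 and 37.2 CPM in MODP. It did not pass (log2 fold change 0.67 ± 1.00, SE; edgeR adjusted p = 0.67). In each same-numbered pair the MOP library was higher. With so wide an SE, the missed threshold does not show equal levels.

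Partners of the family and receptors above it rose in part. Of 13 genes that could be tested, 6 (46.2%) rose, 1 (7.69%) fell and 6 missed the threshold, where 16.3% of all tested genes rose and 14.9% fell. Another 2, Pax3 and Sox10, were not in the table. Csf1r, Tnfrsf11a and Kit, which are among these calls, were also listed with Cd27 and Flt3 as genes of the cell sort. Their calls may therefore not be independent of how the populations were defined. Spi1, which encodes PU.1, the partner of Mitf at osteoclast promoters, stood at 308, 297 and 301 CPM in MOP, against 234, 245 and 235 CPM in MODP (log2 fold change 0.34 ± 0.05, SE; edgeR adjusted p = 0.0017). Pias3, an inhibitor that binds Mitf, stood at 28.4, 30.4 and 29.7 CPM in MOP, against 19.8, 21.8 and 17.5 CPM in MODP (log2 0.59 ± 0.10, SE; edgeR adjusted p = 0.0033). The receptor genes Csf1r and Tnfrsf11a rose by log2 0.77 ± 0.11 and 1.12 ± 0.28 (SE; adjusted p in edgeR of 0.0022 and 0.018). Tnfrsf11a lost its call in 4 of the 6 fits without a library, those without MOP replicate 1 or 2 or MODP replicate 1 or 3. Kit, the receptor that signals to Mitf in melanocytes and mast cells, fell to 114, 149 and 151 CPM in MOP, against 321, 317 and 377 CPM in MODP (log2 -1.29 ± 0.12, SE; edgeR adjusted p = 0.00064).

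Gata2, which acts with Mitf in mast cells and is itself a basophil and mast cell marker, stood at 449, 269 and 371 CPM in MOP, against 57.4, 89.5 and 54.3 CPM in MODP, and its call was lost once replicate number was added as a block, with an edgeR adjusted p of 0.052. Fos and Nfatc1, which act alongside the family in osteoclasts, did not pass. Fos averaged 3115 ± 754 CPM in MOP and 2086 ± 499 CPM in MODP, and Nfatc1 averaged 85.0 ± 3.66 CPM in MOP and 76.8 ± 8.47 CPM in MODP (SD, n = 3 each). Fos was called with the replicate number as a block (adjusted p = 8.9e-05), and Nfatc1 without MODP replicate 2 or without replicate 2 of both groups.

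Other helix-loop-helix leucine zipper genes, whose proteins also bind E-boxes but do not dimerise with this family, went both ways. Of the 17 that could be tested, 4 (23.5%) rose, 6 (35.3%) fell and 7 missed the threshold, with a median log2 fold change of 0.03. Over all tested genes the shares were 16.3% and 14.9%. Myc, which drives growth and division, was lower, at 109, 111 and 115 CPM in MOP against 250.4, 212 and 259 CPM in MODP (log2 -1.11 ± 0.08, SE; edgeR adjusted p = 0.00021). Mxd3, an antagonist of Myc, was higher, at 24.5, 21.9 and 24.0 CPM in MOP against 13.3, 13.5 and 9.42 CPM in MODP (log2 0.97 ± 0.14, SE; edgeR adjusted p = 0.0021). Usf2 was higher by log2 0.22 ± 0.05, and Tfap4 and Mxd4 were lower by log2 -0.37 ± 0.09 and -0.38 ± 0.09 (SE). Without MOP replicate 1, 2 were higher and 1 was lower, without MOP replicate 3, 2 and 2, and without MODP replicate 3, 2 and 3. Without MOP replicate 2 and under upper-quartile scaling 2 were higher. The difference between this group and the Mitf family was not tested.

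**Figure D5:**
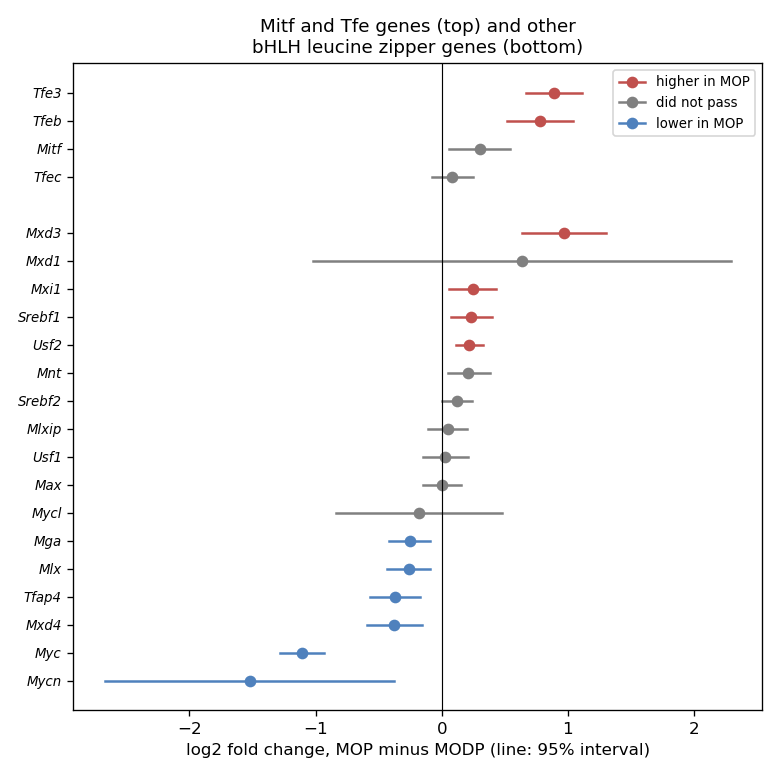
log2 fold change of MOP over MODP (horizontal axis) with unadjusted 95% intervals for the 4 family members (top) and 17 other helix-loop-helix leucine zipper genes (bottom), coloured by the edgeR call. Tfe3 at 0.89 and Tfeb at 0.78 stand near Mxd3 at 0.97, and Myc at -1.11 lies on the other side.

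The genes whose levels most resembled each member over the 6 libraries were found among 9261 other tested genes with a symbol and a mean log2 CPM of at least 3, by Pearson's r of log2 CPM. Because the libraries form 2 groups, r mostly reflects the group difference, and it is given as a description. Nearest to Tfe3 were Ehbp1l1, Myo1f and Olfm1, each with r of 0.9993. Nearest to Tfeb were Mylk3 and Dse at 0.9997 and Ctss, a lysosomal protease gene, at 0.9994. Nearest to Mitf were Ece1, Retreg3 and Cdan1 at 0.993 to 0.9937, with 62.0% of the 31-mers of Cdan1 shared with other genes. Nearest to Tfec were Zfp638, Keap1 and Depdc5 at 0.9899 to 0.9949, and none of these 3 passed the test between the groups. Values of r over 0.9 were found for 1435 genes with Tfe3, 1340 with Tfeb, 874 with Mitf and 143 with Tfec.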

How the data were processed

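Per the file's whole-number values, the authors deposited raw read counts per Ensembl gene, without normalization. TopHat 1.4 and HTSeq stand in the submitters' processing notes. Genome build, annotation and strand setting: not given in the sources used here. Without the strand setting, reads of overlapping antisense genes cannot be told apart. In GENCODE M21 no other gene's exons overlap those of the 4 members, and at most 0.2% of a member's 31-mers occur in other genes. Symbols came from gene identifiers, matching 20840 of 22271.

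edgeR 4.0.16 (R 4.3.3) was used with TMM scaling, filterByExpr (12850 genes tested), group as the sole factor, a robust quasi-likelihood test and Benjamini-Hochberg adjustment at 0.05; edgeR p-values in the text come from this fit unless another is named. The test was checked on simulated counts. DESeq2 1.42.0 and other scalings, filters, blocks and libraries left out were the alternatives. No source says whether libraries came from separate animals, so p-values reflect only how much these libraries vary, possibly for technical reasons.

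Members, lists and tests were chosen with earlier results of these data known. Of each list up to 5 genes past the threshold, by smallest adjusted p, were named; others were chosen after their values were seen. Library numbers 1 to 3 follow the count columns; the titles number the third pair WT1. Over 9351 genes, deviations from the group means correlated at 0.59, 0.61 and 0.51 between same-numbered columns and at -0.45 to 0.05 otherwise, so the column numbers were taken as pairs. The fit with group as the sole factor leaves these pairs out, and the fit with them as a block is among the alternatives. Exon lengths are from GENCODE M21 and may differ from the authors' annotation. Promoter sequences are RefSeq's, on GRCm38.p6, with 250 bases before each start searched.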

Additional observations from a re-analysis of the deposited data

How the results depend on the processing

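Tfe3 and Tfeb kept their direction and their call in all 14 alternatives, with log2 fold changes of 0.80 to 1.00 and 0.66 to 0.91, and Tfec stayed uncalled at 0.02 to 0.13. Mitf ran from 0.23 to 0.34 and was called in 1 alternative, with the replicate number as a block (0.30, adjusted p = 0.031); blocked by the number in the titles, its adjusted p was 0.051. Blocking changed the call of no other member. The ratios between members kept their direction in all alternatives run, among them the replicate block as a test within pairs, which was added after seeing the data.

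Of the control genes, 2 were lower under upper-quartile scaling and with the titles' number as a block, 0 with DESeq2 and 3 with the replicate number as a block. Autophagy genes higher in MOP were 5 with the replicate number as a block and 4 without replicate 2 of both groups. Other zipper genes higher in MOP were 2 under upper-quartile scaling. In the 6 fits without a library, 3 to 10 control genes were higher and 0 to 2 lower, 17 to 24 lysosome genes were higher and 0 to 2 lower, 2 to 4 autophagy genes were higher, and 2 to 4 other zipper genes were higher and 1 to 5 lower. With the longest coding transcript as the length, an alternative chosen after seeing the data, the mean log2 of Tfe3 over Tfeb became 0.04 in MOP, against -0.06 in MODP. The cause of the other changes was not tested.

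Mitf had the fewest reads of the members, 152 to 269 a library.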
